A study of Mus musculus with 12 samples.

Results

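The genes described here are 35 genes of the hypoxia response and of glycolysis, of 18820 genes tested. They were chosen by gene symbol from textbook knowledge, and not by a threshold on their values. Earlier results of these data were known when they were chosen. The hypoxia arm holds 15 oxygen-responsive genes, and the glycolysis arm holds 20 genes of glucose uptake, glycolysis and the fate of pyruvate. All 35 were on the array, and a gene with several probe sets was read from the one with the highest mean over all arrays. None had a mean under 4.12, the 30th percentile of the gene means, which served as the level under which a gene was called dim. The array medians were higher, at 4.71 to 4.92. The mean of P4ha2 (4.57) lay under them and that of Eno2 (4.72) within their range, so detection of these genes is not shown.

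The cells were primary cultures of B lymphomas from λ-MYC;B1-8f mice of a C57BL/6J x BALB/c background, numbered 2564, 2646 and 2676. The λ-MYC transgene drives MYC in B cells, and the B1-8f allele is a B-cell receptor (BCR) heavy-chain segment that Cre can delete. Every culture, and so every group, had received TAT-Cre, a cell-permeable recombinase. Cells that kept the BCR and cells that had lost it grew together for 4 days, without or with CHIR99021, a compound that inhibits the kinase GSK3, before flow cytometry parted them. The 4 groups were therefore BCR-positive untreated, BCR-negative untreated, BCR-positive with CHIR99021 and BCR-negative with CHIR99021. Each had 3 arrays, 1 per lymphoma. The sources used here do not give the dose of CHIR99021 or the age and sex of the mice. Each lymphoma is 1 tumour, so the number of tumours, and not of cultures, limits what the groups stand for.

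The values are log2 expression values, and a change is the mean log2 difference within lymphomas ± its standard error (SE) from limma, with n = 3 lymphomas. Both populations of a culture entered the fit as separate arrays, with no term for the culture. Their changes thus counted as independent, so the SE and p of a CHIR99021 change averaged over both populations can be too small. A gene is called higher or lower where the Benjamini-Hochberg adjusted p, over all 18820 genes, was under 0.05. Ighv1-72, the segment of the B1-8 heavy chain, was lower in the BCR-negative than in the BCR-positive array in 6 of 6 cultures, by 1.39 to 3.66 on the log2 scale. The labelled B-cell identity could be read from 7 marker genes. Cd79a lay between 10.9 and 11.8 and Cd79b between 11.0 and 11.7, while Ms4a1 lay under the dim level on every array, at 3.03 to 3.92. Pax5, Ebf1 and Cd22 stayed at 8.34 or above. Blk averaged 4.85 in lymphoma 2564, 4.87 in 2646 and 7.82 in 2676. By their mean over the arrays, 3 of 6 T-cell markers (Cd3d, Cd3g and Cd4) and 2 of 6 myeloid markers (Lyz2 and Adgre1) lay under the dim level. The T-cell markers Cd3e, Cd8a and Cd5 and the myeloid markers Csf1r, Itgam, Cd68 and Mpo did not, and Csf1r ran from 4.52 to 8.53 and Itgam from 4.68 to 8.03.

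Cells read oxygen through prolyl hydroxylases, which mark the alpha subunit of hypoxia-inducible factor (HIF) for destruction by the VHL ubiquitin ligase. When oxygen is short the subunit persists, pairs with ARNT, and binds sites with the core ACGTG or GCGTG in the regulatory DNA of its target genes. Those targets include secreted factors, mitochondrial proteins, the hydroxylases themselves, glucose transporters and most enzymes of glycolysis, the pathway that turns glucose into pyruvate and lactate. MYC binds many of the same glycolysis genes, and B lymphomas driven by MYC are known for high glucose use.

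To place these genes beside the HIF core, promoter sequences from RefSeq (GRCm38.p6) are shown for the 4 genes with the smallest adjusted p under CHIR99021. Each runs 5′ to 3′ on the strand of the gene, from 250 bases before to 50 bases after the transcription start. Capitals mark ACGTG or GCGTG on either strand, so CACGT is ACGTG read on the other strand.

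Ero1a, chr14:45318523-45318822, minus strand: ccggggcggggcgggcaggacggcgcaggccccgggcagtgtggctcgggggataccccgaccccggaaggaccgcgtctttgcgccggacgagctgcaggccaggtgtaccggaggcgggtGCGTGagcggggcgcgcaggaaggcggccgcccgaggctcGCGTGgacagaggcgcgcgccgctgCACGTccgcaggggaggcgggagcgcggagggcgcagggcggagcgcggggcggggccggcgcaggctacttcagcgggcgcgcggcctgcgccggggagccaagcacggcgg

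Higd1a, chr9:121857747-121858046, minus strand: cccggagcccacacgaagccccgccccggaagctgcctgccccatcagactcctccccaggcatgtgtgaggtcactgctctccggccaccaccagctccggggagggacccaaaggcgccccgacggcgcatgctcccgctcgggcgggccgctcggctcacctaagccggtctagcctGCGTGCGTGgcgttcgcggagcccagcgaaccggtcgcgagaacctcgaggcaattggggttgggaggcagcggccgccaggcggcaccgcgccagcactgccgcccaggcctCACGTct

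Egln1, chr8:124949205-124949504, minus strand: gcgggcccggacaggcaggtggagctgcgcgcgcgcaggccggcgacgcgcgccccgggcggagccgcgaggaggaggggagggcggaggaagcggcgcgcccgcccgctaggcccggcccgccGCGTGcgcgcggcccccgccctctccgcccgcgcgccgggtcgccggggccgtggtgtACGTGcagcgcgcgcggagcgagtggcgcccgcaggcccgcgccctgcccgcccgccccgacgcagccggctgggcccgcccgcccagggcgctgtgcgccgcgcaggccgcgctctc

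Vegfa, chr17:46032328-46032627, minus strand: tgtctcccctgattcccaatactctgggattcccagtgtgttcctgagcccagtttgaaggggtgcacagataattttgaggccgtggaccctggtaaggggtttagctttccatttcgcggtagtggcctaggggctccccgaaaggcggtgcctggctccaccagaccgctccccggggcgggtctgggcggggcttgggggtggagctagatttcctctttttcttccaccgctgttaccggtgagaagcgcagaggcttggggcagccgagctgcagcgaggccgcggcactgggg

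The Ero1a window held 3 matches, which began 128, 88 and 63 bases before the start. In the Higd1a window, 2 copies of GCGTG overlapped by 1 base and began 70 and 66 bases before the start, and an ACGTG core on the opposite strand lay 44 bases after it. Egln1 held GCGTG 126 bases and ACGTG 68 bases before the start. The Vegfa window held neither word. Promoters were matched for 31 of the 35 genes, all but Bnip3l, Ndrg1, Bhlhe40 and Slc2a3. Of these 31, 25 (80.6%) held at least 1 of the words, against 43.8% of all 27025 promoters of the same length. The share was 91.7% in the hypoxia arm (11 of 12) and 73.7% in the glycolysis arm (14 of 19). Base composition differed as well, with a median GC content of 65% in these promoters and 52.7% in all, and its part in the motif share was not tested. A match describes letters in a window and does not show binding.

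CHIR99021 raised a group of hypoxia-responsive genes in these lymphoma cells. Averaged over both populations, 12 of the 35 genes (34.3%) were called higher and 0 lower, against 3.91% of all genes called higher and 3.47% called lower. An unadjusted p under 0.05 was reached by 21 of the 35 (60%), against 20.8% of all genes. The hypoxia arm held 8 of the 12, which were Ero1a, Higd1a, Egln1, Vegfa, Adm, P4ha1, Bhlhe40 and Bnip3. The call of Higd1a is uncertain, since its other probe set did not show the rise. The glycolysis arm held Pfkp, Hk2, Pfkl and Slc2a1, all in the upper part of the pathway. The median change was 0.18 over the 35 genes and 0.01 over all genes, and it was 0.29 in the hypoxia arm and 0.12 in the glycolysis arm. Per lymphoma the median over the 35 genes was 0.20, 0.24 and 0.18 in 2564, 2646 and 2676.

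**Figure D1:**
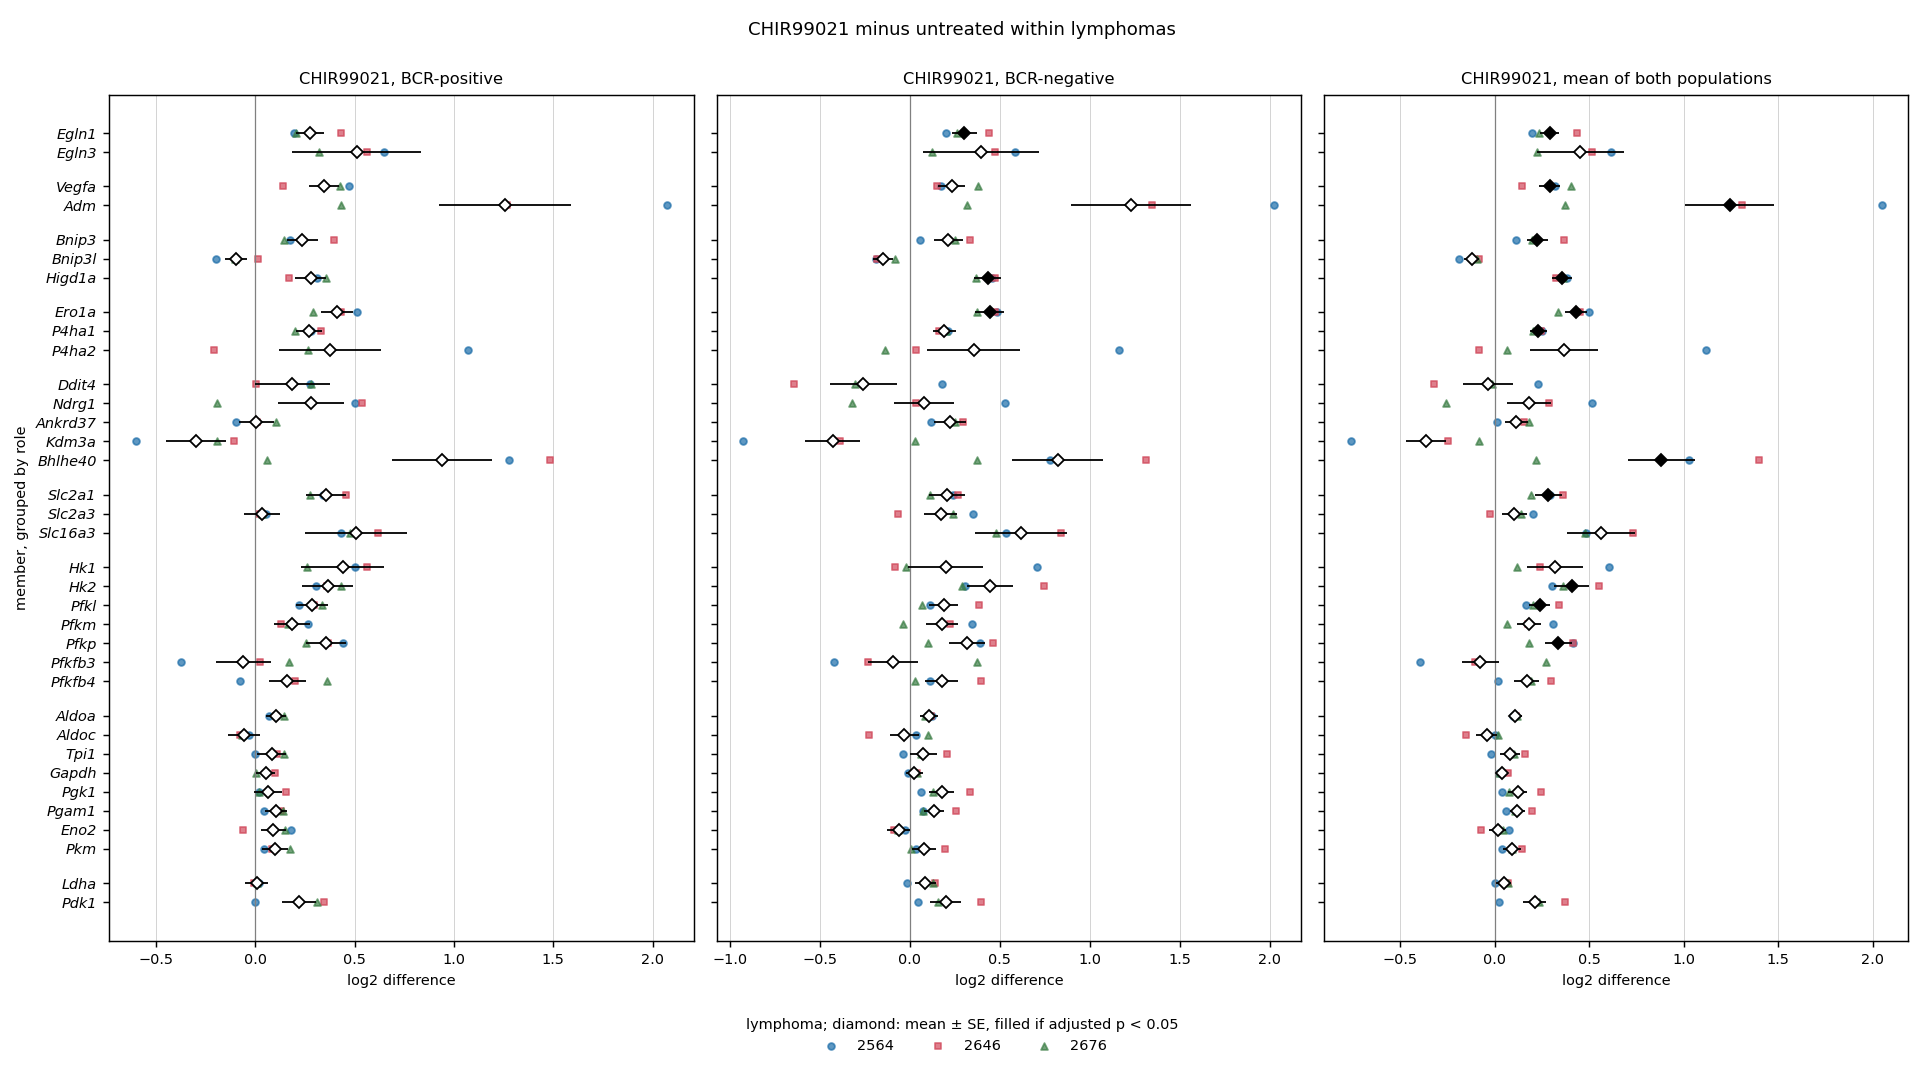
Log2 difference with CHIR99021 for each of the 35 genes, in BCR-positive cells (left), BCR-negative cells (middle) and the mean of both (right). Diamonds with bars are the limma mean ± SE (n = 3 lymphomas), filled where the adjusted p was under 0.05, and coloured points are single lymphomas. In the right panel the 12 called genes lie to the right of 0, from 0.23 to 1.24, and the genes of lower glycolysis lie close to 0.

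Among the oxygen-sensing enzymes, Egln1, the main prolyl hydroxylase that marks HIF for destruction, stood apart on every array. In BCR-positive cells of lymphomas 2564, 2646 and 2676 it was at 9.38, 9.15 and 9.22 untreated and at 9.57, 9.58 and 9.43 with CHIR99021. In BCR-negative cells it was at 9.33, 8.99 and 9.19 untreated and at 9.54, 9.43 and 9.46 treated. All 6 treated arrays lay above all 6 untreated ones, which no other of the 35 genes showed, and groups that did not overlap in either direction were found for 0.383% of all genes. Egln1 rose by 0.29 ± 0.0504 (1.22-fold, limma adjusted p = 0.0121). Its relative Egln3, a hydroxylase that HIF itself induces, differed mainly by tumour, from 4.92 to 6.92 in lymphoma 2564 and from 9.73 to 10.41 in 2646, and its difference of 0.45 ± 0.229 did not pass.

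Both secreted factors rose. Adm encodes adrenomedullin, a peptide that widens vessels. Its BCR-positive arrays read 6.94, 6.31 and 4.80 untreated and 9.01, 7.58 and 5.23 with CHIR99021, in the order 2564, 2646 and 2676. The BCR-negative arrays read 6.61, 5.67 and 4.83 untreated and 8.64, 7.02 and 5.14 treated. Treated arrays were the higher in every lymphoma, while lymphoma 2676 stayed near 5 in all groups, so the groups overlapped across tumours. The rise was 1.24 ± 0.235 (2.37-fold, adjusted p = 0.0159), made of 2.05, 1.31 and 0.37 in the 3 lymphomas. Vegfa, the main growth factor for blood vessels, read 8.60, 8.08 and 8.51 in untreated BCR-positive cells and 9.07, 8.22 and 8.94 in treated ones. In BCR-negative cells it read 8.89, 8.09 and 8.58, and 9.06, 8.24 and 8.95 with CHIR99021. Its rise of 0.29 ± 0.0539 (adjusted p = 0.015) was smallest in lymphoma 2646.

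Of the genes of endoplasmic-reticulum oxidation and collagen hydroxylation, Ero1a and P4ha1 rose. Ero1a encodes an oxidase that drives disulphide-bond formation in secreted proteins. It read 10.97, 10.51 and 10.77 in untreated BCR-positive cells and 11.49, 10.94 and 11.06 with CHIR99021. BCR-negative cells gave 10.95, 10.51 and 10.46 untreated and 11.44, 10.98 and 10.83 treated. Within each lymphoma both treated arrays were above both untreated ones, with a rise of 0.43 ± 0.0573 (1.35-fold, adjusted p = 0.0044). P4ha1, a catalytic subunit of the collagen prolyl hydroxylase, read 9.73, 9.59 and 8.99 against 10.01, 9.92 and 9.19 in BCR-positive cells, untreated first. The BCR-negative values were 9.77, 9.84 and 8.92 against 9.99, 10.002 and 9.12. It rose by 0.23 ± 0.0458 (adjusted p = 0.0189), again in all 3 tumours. P4ha2, the other catalytic subunit listed, did not pass, at 0.37 ± 0.182, and its difference was 1.12 in lymphoma 2564 against -0.09 and 0.06 in the others.

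Among mitochondrial genes, Bnip3, a receptor that targets mitochondria for autophagy, read 10.91, 10.84 and 10.48 in untreated BCR-positive cells and 11.09, 11.23 and 10.63 in treated ones. In BCR-negative cells it read 10.99, 10.85 and 10.62, and 11.05, 11.18 and 10.87 with CHIR99021. The rise of 0.23 ± 0.0566 (adjusted p = 0.0427) was seen again in the gene's other probe set, at 0.33 ± 0.0723. Bnip3l, its close relative in mitophagy, had a difference of -0.12 ± 0.0388 and did not pass. Higd1a, a small protein of the inner mitochondrial membrane, read 5.49, 5.41 and 4.97 in untreated BCR-positive cells and 5.80, 5.58 and 5.32 in treated ones. BCR-negative cells gave 5.30, 4.88 and 4.82 untreated and 5.76, 5.35 and 5.19 treated. It was called higher, by 0.35 ± 0.0538 (adjusted p = 0.0076), but the call is uncertain, since its other probe set moved by 0.01 ± 0.115 and the mean of both gave 0.18 ± 0.0732 (adjusted p = 0.183).

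In the group of stress-response and nuclear regulators, Bhlhe40, a transcriptional repressor of the basic helix-loop-helix family, rose by 0.88 ± 0.178 (1.84-fold, adjusted p = 0.0203). Its untreated BCR-positive values were 4.76, 5.66 and 4.53, and the treated values were 6.03, 7.15 and 4.59. The BCR-negative values were 4.99, 5.44 and 4.45 untreated and 5.77, 6.76 and 4.82 treated. As with Adm, lymphoma 2676 moved least, by 0.22 against 1.03 and 1.40 in 2564 and 2646. Kdm3a, a histone demethylase, went the other way without passing (-0.36 ± 0.107, adjusted p = 0.0738). Ndrg1 (0.18 ± 0.118), Ankrd37 (0.11 ± 0.0622) and Ddit4 (-0.04 ± 0.133) did not pass either.

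**Figure D2:**
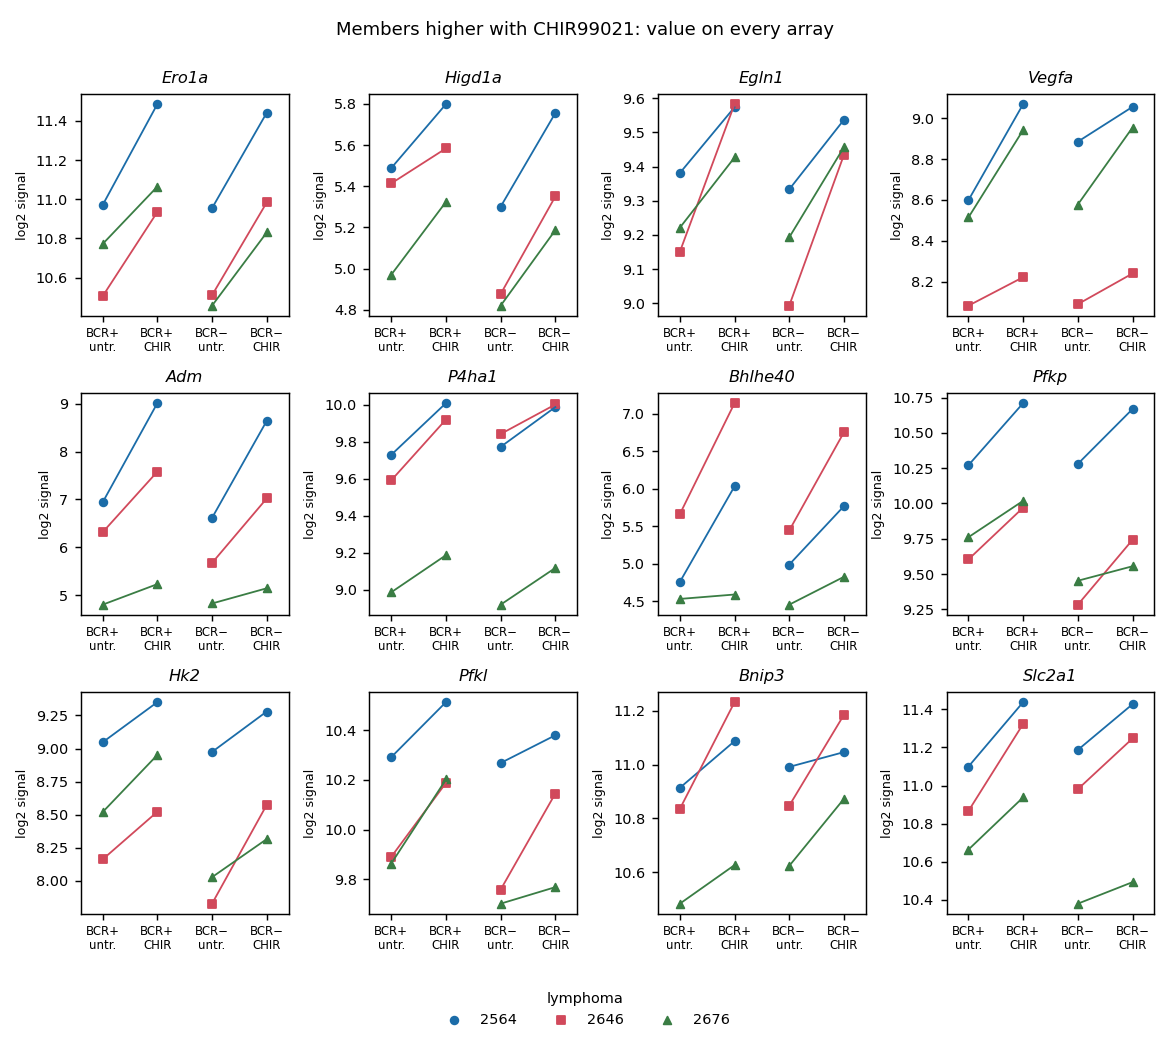
Log2 expression value on each of the 12 arrays for the 12 genes called higher with CHIR99021. Points are arrays, arranged by group, and lines join the untreated and the treated array of 1 lymphoma and population. Adm and Bhlhe40 show the widest rises and a nearly flat lymphoma 2676, and Egln1 shows no overlap between treated and untreated arrays.

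At the entry of glycolysis, Slc2a1, the glucose transporter GLUT1, read 11.10, 10.87 and 10.66 in untreated BCR-positive cells and 11.44, 11.32 and 10.94 with CHIR99021. BCR-negative cells gave 11.19, 10.98 and 10.38 untreated and 11.43, 11.25 and 10.49 treated. It rose by 0.28 ± 0.0711 (adjusted p = 0.0434), although the treated BCR-negative array of lymphoma 2676 lay below the untreated BCR-positive array of that tumour. Hk2, an inducible hexokinase that traps glucose in the cell, read 9.05, 8.16 and 8.52 against 9.35, 8.52 and 8.95 in BCR-positive cells. In BCR-negative cells it read 8.97, 7.83 and 8.03 against 9.28, 8.57 and 8.32, and the rise was 0.41 ± 0.0912 (adjusted p = 0.0293). In lymphoma 2676 the treated BCR-negative array of Hk2 also lay below the untreated BCR-positive array, at 8.32 against 8.52. The groups of both genes overlapped across tumours. Slc2a3, another glucose transporter, and Hk1, the hexokinase found in most tissues, did not pass, at 0.10 ± 0.0648 and 0.32 ± 0.148.

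Phosphofructokinase, which commits sugar to glycolysis, has liver, platelet and muscle subunits encoded by Pfkl, Pfkp and Pfkm. Pfkp read 10.27, 9.60 and 9.76 in untreated BCR-positive cells and 10.71, 9.97 and 10.02 in treated ones. The BCR-negative arrays gave 10.28, 9.28 and 9.45, and 10.67, 9.74 and 9.56 with CHIR99021. Pfkp rose by 0.34 ± 0.0704 (adjusted p = 0.023). Pfkl read 10.29, 9.89 and 9.86 against 10.51, 10.19 and 10.20 in BCR-positive cells and 10.27, 9.76 and 9.70 against 10.38, 10.14 and 9.77 in BCR-negative cells. It rose by 0.24 ± 0.0562 (adjusted p = 0.036), while the smaller difference of Pfkm, 0.18 ± 0.0638, did not pass. For both Pfkp and Pfkl, the treated BCR-negative array of lymphoma 2676 lay below the untreated BCR-positive array of that tumour. Pfkfb3 and Pfkfb4, which set the level of an activator of phosphofructokinase, were at -0.08 ± 0.0994 and 0.17 ± 0.0653, neither past the test.

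None of the 8 genes of lower glycolysis was called by limma, against the 3.91% and 3.47% of all genes called higher and lower, and 3 (37.5%) had an unadjusted p under 0.05, against 20.8% of all genes. Their differences ran from -0.04 (Aldoc) to 0.12 (Pgk1), and the median was 0.08. Gapdh, Aldoa, Pgam1, Pkm, Pgk1 and Tpi1 had means of 11.2 to 12.5, at percentile 99 or above among the gene means. The highest value on any array was 12.76. Whether differences are compressed near the top of the scale was not tested. Eno2 lay low, between 4.59 and 4.80 on all arrays. Pgk1, the first enzyme of the pathway to make ATP, read 11.74, 11.62 and 11.71 in untreated BCR-positive cells and 11.76, 11.77 and 11.73 treated. In BCR-negative cells it read 11.75, 11.37 and 11.59, and 11.81, 11.71 and 11.72 with CHIR99021. Pgk1 was the 1 glycolysis gene whose treated arrays lay above both untreated arrays in every lymphoma, by small steps.

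After glycolysis, Ldha makes lactate from pyruvate, Pdk1 keeps pyruvate out of the mitochondrial cycle, and Slc16a3 exports lactate. Ldha read 12.25, 12.24 and 12.19 in untreated BCR-positive cells, and 12.27, 12.24 and 12.20 treated. Its BCR-negative values were 12.28, 12.01 and 12.05 untreated and 12.26, 12.15 and 12.18 treated. Its difference of 0.05 ± 0.0411 did not pass. Pdk1 read 9.80, 9.34 and 9.49 against 9.80, 9.69 and 9.80 in BCR-positive cells, and 9.84, 9.22 and 9.53 against 9.89, 9.62 and 9.69 in BCR-negative cells. Its difference of 0.21 ± 0.0612 missed the threshold (adjusted p = 0.0706), as did that of Slc16a3, 0.56 ± 0.181 (adjusted p = 0.0972).

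**Figure D3:**
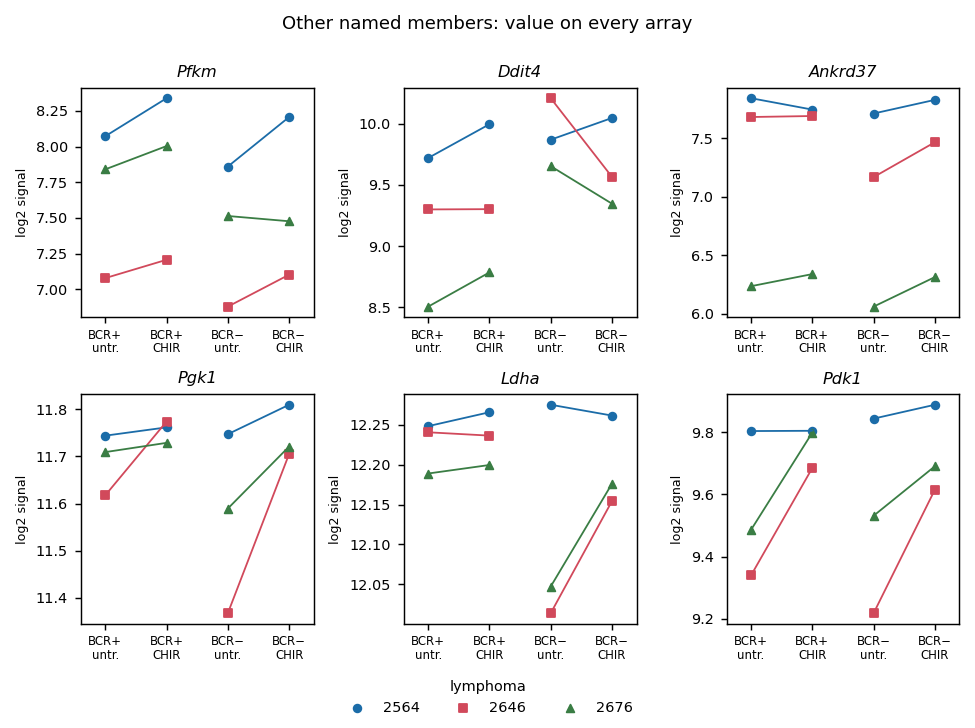
Log2 expression value on each of the 12 arrays for Pfkm, Ddit4, Ankrd37, Pgk1, Ldha and Pdk1, with points for arrays and lines joining the untreated and the treated array of 1 lymphoma and population. Ldha stays between 12.01 and 12.28, and Ddit4 is higher in untreated BCR-negative than in untreated BCR-positive cells of every lymphoma.

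Counted by order alone, both treated arrays lay above both untreated arrays in all 3 lymphomas for 8 of the 35 genes, against 2.11% of all genes. These were Egln1, Vegfa, Adm, Bnip3, Ero1a, P4ha1 and Bhlhe40 of the hypoxia arm, and Pgk1. In BCR-negative cells taken alone, CHIR99021 raised 3 of the 35 genes (8.57%, against 1.91% of all genes called higher). They were Ero1a (0.44 ± 0.081, adjusted p = 0.0234), Egln1 (0.30 ± 0.0713, adjusted p = 0.0495) and the uncertain Higd1a (0.43 ± 0.0761, adjusted p = 0.021). Without lymphoma 2564 or 2646, or without the block, 0 were called. In BCR-positive cells alone limma called 0 of 35, against 0.0744% of all genes in either direction, and 13 of the 35 had an unadjusted p under 0.05 (37.1%, against 10% of all genes). The median change was 0.22 with the BCR and 0.19 without it, and 0.00 and 0.01 over all genes.

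The 12 calls rest on all 3 tumours and on the lymphoma block. Without lymphoma 2564 or 2646, 1 gene was called (Pdk1 and Higd1a, respectively), without 2676 there were 7, and without the block there were 0. Leaving out single arrays gave 4 to 14 calls. Lymphoma as a random block left Egln1 and Ero1a, and the median stayed between 0.15 and 0.23 when a lymphoma or an array was left out. Of 24 alternative fits, Ero1a was called in 21, Egln1 in 20, and Vegfa, Adm and Higd1a in 19 each. Bhlhe40 was called in 17, P4ha1 in 15, Pfkp in 14 and Hk2 in 12. Pfkl was called in 10, and Slc2a1 and Bnip3 in 8 each.

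B-cell markers moved in the same comparison. Of the 7 measured, Cd79b (-0.32), Ebf1 (-0.80) and Pax5 (-0.37) were called lower with CHIR99021. The summed linear signal of the 7 ran from 8258 to 9820 and from 8842 to 10950 in untreated BCR-positive and BCR-negative cells, and from 5794 to 8516 and from 5967 to 8881 in treated ones. Of 6 myeloid markers, Csf1r (0.66) was called higher, and their summed signal overlapped between groups, at 196.8 to 378.1, 233.6 to 545.3, 199.9 to 559.8 and 214.4 to 448.1 in the same order. Of 5 stromal markers, Pecam1 (-0.62) was called lower, and none of the 6 T-cell or 3 NK-cell markers was called. With BCR loss over both cultures, Pecam1 (0.54) was called higher and no other marker was called. All 6 myeloid markers then differed by more than 0, and 3 had an unadjusted limma p under 0.05. The part of these shifts in the results was not tested, and in sorted bulk cells fewer cells of a type and less RNA per cell cannot be told apart.

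With loss of the BCR few genes were called, among these 35 as among all genes. In untreated cultures limma called 0 of 35, against 4.2% of all genes, and 9 had an unadjusted p under 0.05 (25.7%, against 20.5% of all genes). With CHIR99021 it again called 0, against 0.0159% of all genes, and 3 had an unadjusted p under 0.05 (8.57%, against 8.65%). The median change was -0.07 and -0.05, and 0.00 over all genes in both. Over the mean of both cultures, 2 of 35 genes (5.71%) were called lower, against 3.46% of all genes, and 0 higher, against 3.17%. An unadjusted p under 0.05 was reached by 12 (34.3%), against 22.6% of all genes. Of the glycolysis arm, 4 of 20 genes lay above 0 (20%, median -0.09). Of the hypoxia arm, 9 of 15 did (60%, median 0.04), against 50.7% of all genes. These comparisons use the same 12 arrays as those of CHIR99021. In no lymphoma-by-lymphoma ordering were both BCR-negative arrays above or below both BCR-positive arrays for any of the 35 genes in all 3 tumours, against 1.86% and 1.41% of all genes.

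**Figure D4:**
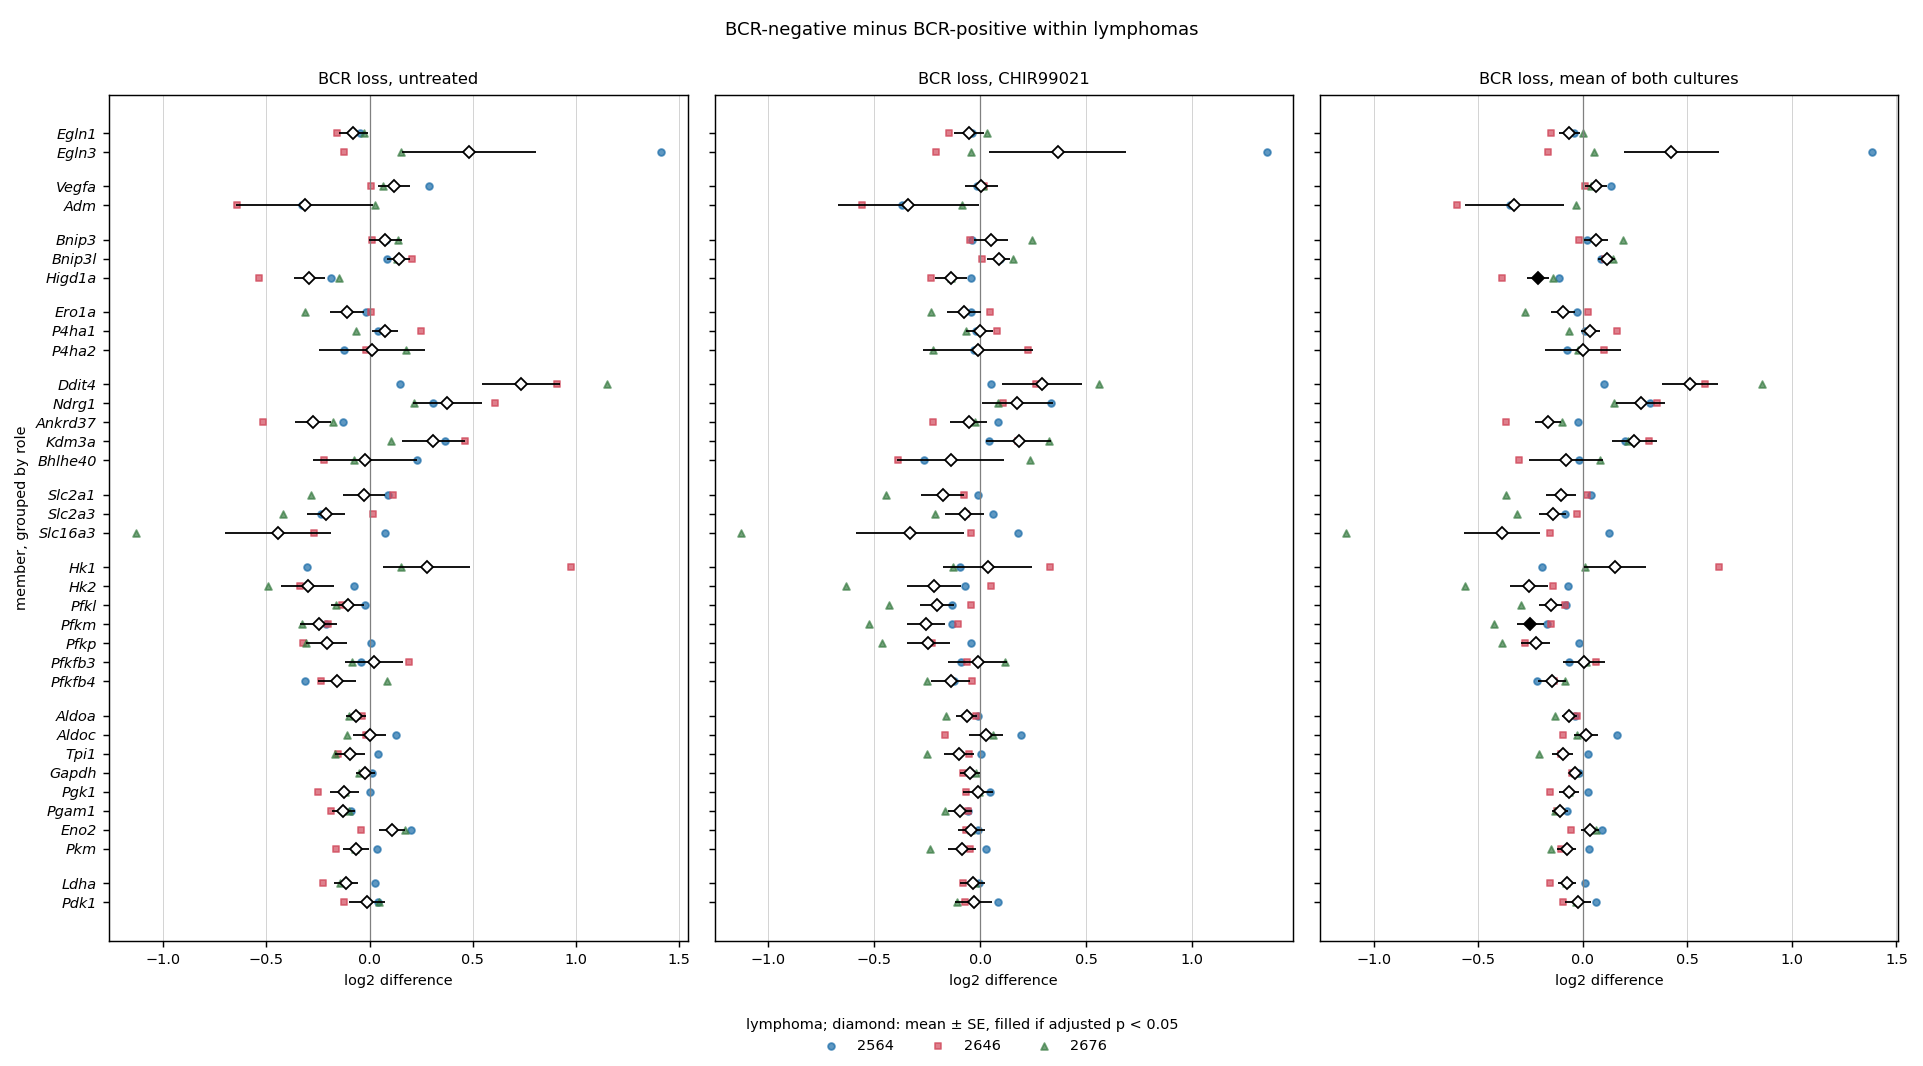
Log2 difference with BCR loss for each of the 35 genes, in untreated cultures (left), CHIR99021 cultures (middle) and the mean of both (right). Diamonds with bars are the limma mean ± SE (n = 3 lymphomas), filled where the adjusted p was under 0.05, and coloured points are single lymphomas. In the right panel Higd1a and Pfkm are filled, left of 0, and the Ddit4 diamond lies farthest to the right, at 0.51.

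Pfkm, the muscle-type phosphofructokinase, was lower in the BCR-negative cells of every lymphoma and culture. It read 8.07, 7.08 and 7.84 in untreated BCR-positive cells and 7.86, 6.88 and 7.51 in BCR-negative cells. With CHIR99021 the values were 8.34, 7.21 and 8.00, and 8.21, 7.10 and 7.48. The tumours overlapped between groups, with lymphoma 2646 lowest throughout, and the fall was -0.25 ± 0.0638 (adjusted p = 0.0475). Pfkp (-0.23 ± 0.0704), Pfkl (-0.15 ± 0.0562) and Hk2 (-0.26 ± 0.0912) had differences of the same sign that did not pass. Higd1a was called lower, by -0.21 ± 0.0538 (adjusted p = 0.0456), but its other probe set moved by 0.04 ± 0.115, so this call is uncertain as well. Without the block, or without lymphoma 2646 or 2676, limma called none of the 35 genes.

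Ddit4 encodes an inhibitor of mTORC1 that hypoxia, glucocorticoids and other stresses induce. In untreated cultures it read 9.72, 9.30 and 8.50 in BCR-positive cells and 9.87, 10.21 and 9.65 in BCR-negative cells. With CHIR99021 it read 9.996, 9.30 and 8.78, and 10.05, 9.56 and 9.35. BCR-negative cells had the higher value in all 6 cultures, by 0.15, 0.91 and 1.15 untreated and by 0.05, 0.26 and 0.56 treated. The mean difference of 0.51 ± 0.133 missed the threshold (adjusted p = 0.0508), and passed it with dim genes left out or array medians subtracted. Ankrd37, a small ankyrin-repeat protein induced by HIF, read 7.84, 7.68 and 6.23 against 7.71, 7.17 and 6.06 untreated, BCR-positive first, and 7.74, 7.69 and 6.34 against 7.83, 7.46 and 6.31 treated. Ndrg1 (0.28 ± 0.118) and Kdm3a (0.25 ± 0.107) had differences above 0 in every lymphoma that did not pass. Egln3 differed by 0.42 ± 0.229, with 1.38 in lymphoma 2564 and -0.17 and 0.05 in the others. Slc16a3, the lactate exporter, differed by -1.13 with BCR loss in lymphoma 2676, the tumour in which it moved most.

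Whether BCR status altered the response to CHIR99021 was asked by the interaction term. Limma called 0 of 35 genes and 0 of all 18820 (0%). At an unadjusted p under 0.05 there were 0 of the 35 and 990 of all genes (5.26%), and the smallest p among the 35 was 0.112, for Ankrd37. No difference in response between the populations was thus called.

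For 26 of the 35 genes, more of the sum of squares lay between lymphomas than between groups. The median share of a gene's sum of squares was 61.8% for lymphoma, 26.1% for group and 10.3% for the residual. Egln3 had 92.7% of its sum of squares between lymphomas, and Kdm3a had 17.2%.

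The transcription factors themselves were not called. Hif1a, the alpha subunit that oxygen destabilises, lay between 9.72 and 10.10 on all arrays and differed by 0.04 ± 0.0377 with CHIR99021. Arnt and Vhl differed by -0.07 and 0.07. Limma called none of 8 measured genes of HIF factors and their regulators in that comparison, and 0 of the 8 had an unadjusted p under 0.05. The 8 were Hif1a, Epas1, Hif3a, Arnt and Arnt2, and the regulators Vhl, Egln2 and Hif1an. Of all genes, 3.91% were called higher and 3.47% lower. The arrays measure RNA, and HIF is known to be set mainly at the level of the protein. Of 45 other genes of the pathways, 6 (13.3%) were called higher and 5 (11.1%) lower with CHIR99021, against 3.91% and 3.47% of all genes. Those higher were Plod1 (0.65), a collagen lysyl hydroxylase, Eno3 (0.49), the muscle enolase, Ak4 (0.48), a mitochondrial adenylate kinase, Fam162a (0.39), Gbe1 (0.38), the glycogen branching enzyme, and Tigar (0.32), a fructose bisphosphatase. Those lower were Narf (-0.66), Pdp1 (-0.44), a pyruvate dehydrogenase phosphatase, Mxi1 (-0.23), a MYC antagonist, Slc2a8 (-0.23), a sugar transporter, and Kdm4b (-0.19), a histone demethylase. By kind, 4 of 21 other hypoxia-inducible genes were called higher and 3 lower (19% and 14.3%, median change 0.07). Of 16 other glycolysis and pyruvate genes, 2 were called higher and 2 lower (12.5% each, median change 0.04). With BCR loss over both cultures, Zfp395 (0.46) was called higher, and Eno3 (-0.64) and Pdk3 (-0.22), a pyruvate dehydrogenase kinase, were called lower. These are 2.22% and 4.44% of the 45, against 3.17% of all genes called higher and 3.46% called lower.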

How the data were processed

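Labelled RNA from 12 sorted samples, 3 per group, was hybridised to Affymetrix gene-level arrays. The log2 values per probe set were used as deposited, and the submitters' processing notes name RMA and Affymetrix Power Tools without versions.

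Of 35556 probe sets, 21218 had 1 gene symbol in the platform annotation, 1881 had several and 12457 were not listed. Entrez identifiers matched 21185 of the 21218 to RefSeq (GRCm38.p6), with no symbol changed. The brightest probe set by mean stood for a gene, which gave 18820 genes. Array medians lay between 4.71 and 4.92. The number of arrays limits the precision.

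Tests used limma 3.58.1 in R 4.3.3, with group and lymphoma as fixed terms (6 residual degrees of freedom), eBayes moderation and Benjamini-Hochberg adjustment over all genes. The labels number the lymphomas, and each lymphoma's arrays form a block. Array deviations from the group means correlated at r of 0.813 to 0.907 within a lymphoma and at -0.574 to -0.248 between lymphomas. P-values rest on the residual spread left after the group and lymphoma terms, pooled over the 4 groups of 3 lymphomas and moderated over all genes. The code was tested on simulated data.

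Members, lists and tests were chosen with earlier results of these data known. Values on every array are given for members called in any comparison, for the 3 smallest p in each comparison other than the interaction, and for Slc2a1, Hk2, Pgk1, Ldha and Pdk1. Alternatives changed the block, the arrays fitted, the dim filter, the probe set rule, the normalization and the variance model.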

Additional observations from a re-analysis of the deposited data

How the results depend on the processing

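No called result changed direction under the alternatives run. The interaction median, which had no call, lay close to 0 and changed sign when some arrays were left out. With no replicate block, the calls fell from 12 to 0 for CHIR99021 over both populations, from 3 to 0 in BCR-negative cells and from 2 to 0 for BCR loss over both cultures. With lymphoma as a random block they were 2, 0 and 0. Fitting only the arrays compared gave 0 calls in place of 3 for CHIR99021 in BCR-negative cells and 1 in place of 0 in BCR-positive cells. For BCR loss over both cultures, the 2 calls became 1 with a finer block, the mean of probe sets, cyclic loess or quantile normalization, 0 with a trended and robust variance, and 5 (4 lower, 1 higher) with array medians subtracted. For BCR loss in untreated cultures, 0 calls became 1 with dim genes left out, which was Ddit4, and 1 with array medians subtracted, cyclic loess or quantile normalization, which was Higd1a. The 12 calls stayed between 11 and 15 under the settings not yet named.

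Subtracting array medians moved the median change of the 35 genes to 0.23 for CHIR99021 over both populations, 0.26 with the BCR and 0.25 without it, to -0.10 for BCR loss with CHIR99021 and to -0.12 for BCR loss over both cultures. The mean of probe sets gave 0.19 for CHIR99021 in BCR-positive cells.

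Leaving out a lymphoma or an array gave 1 to 14 calls for CHIR99021 over both populations, 0 to 5 in BCR-negative cells, 0 to 3 for BCR loss over both cultures and 0 to 1 for BCR loss in untreated cultures. The 12 calls became 1 without lymphoma 2564 or 2646, 7 without 2676, 5 without the untreated BCR-positive and 4 without the treated BCR-negative array of 2564, 7 without the untreated BCR-negative, 7 without the treated BCR-positive and 5 without the treated BCR-negative array of 2646, and 7 without the treated BCR-positive array of 2676. The 3 calls in BCR-negative cells became 0 without lymphoma 2564 or 2646, without the treated BCR-negative array of either or the untreated BCR-negative array of 2646, and 5 without the treated BCR-negative array of 2676. The 2 calls for BCR loss became 1 higher and 1 lower without lymphoma 2564 or its untreated BCR-negative array, and became 1 without its treated BCR-positive array and 3 without its treated BCR-negative array. They became 0 without any of the other 9 arrays or without lymphoma 2646 or 2676. The 1 call in untreated cultures appeared without lymphoma 2564, its untreated BCR-negative array or the treated BCR-negative array of 2676. The medians then ran from 0.15 to 0.23 for CHIR99021 over both populations, from 0.17 to 0.23 in BCR-positive cells, from -0.0892 to -0.0147 for BCR loss with CHIR99021, from -0.111 to -0.0322 for BCR loss over both cultures and from -0.0512 to 0.0288 for the interaction. The cause was not tested beyond the fewer arrays in each fit. Limma made 0 calls among the 35 genes for BCR loss with CHIR99021 and for the interaction under every alternative run.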
